A study of Larix kaempferi with 6 samples.

Results

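In shoot tips of Japanese larch seedlings, 119 transcripts that were already expressed under watering stood at least 3 times higher in every library made after 14 d without water. They were chosen from the FPKM values themselves (a level that divides a transcript's fragments by its length and by the size of the library). A transcript entered when it had 5 FPKM or more in each of the 3 control libraries and when its lowest drought value was at least 3 times its highest control value. Of 12228 transcripts in the tables, 7876 met the basal level and 119 of those (1.51%) also met the fold. Because these values picked the members, the levels and folds of the members are descriptions and carry no test.

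The plants were 4-month-old seedlings of Larix kaempferi, a deciduous conifer, grown with 1 plant in each 15 cm pot in a greenhouse, with the soil held at 70% of field capacity or more. The drought group then received no water for 14 d and the control group was watered as usual, and the upper 3 cm of the shoot was taken for total RNA. There are 3 libraries in each group, numbered 1 to 3 by the labels. The labels name no genotype or seed source, and they do not say whether a library came from 1 plant or from a pool, so the spread between libraries may be partly technical. In plants, loss of soil water is known to raise abscisic acid, the hormone that closes stomata and switches on protective genes, and drought-responsive transcripts commonly code for dehydrins and other late embryogenesis abundant proteins, enzymes that make compatible solutes, and regulators of hormone signalling. Some such genes already run at a low basal level in growing tissue and are raised further under stress, while others are nearly silent until stress begins. The files do not pair the transcript identifiers with gene names, so no member can be placed in any of these classes, the marker genes of the tissue could not be checked, and members are told apart here by their lengths and levels.

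The libraries were unevenly spaced within the groups. On log2(FPKM + 1), controls 1 and 2 correlated at 0.989 across tested transcripts, and control 3 correlated with them at 0.894 and 0.893. Drought 3 correlated at 0.877 with drought 1 and at 0.911 with drought 2, which correlated with each other at 0.961. Across the groups, drought 3 correlated with the controls at 0.803 to 0.822, drought 1 at 0.745 to 0.758 and drought 2 at 0.740 to 0.769. Depth, estimated from the steps between low FPKM values within a preset search range, was 12800000 to 17300000 fragments per library. At that depth the members rested on an estimated 19.99 to 4794 fragments in the control library where each was lowest, with a median of 248. In bulk tissue, a change in the number of cells that express a transcript and a change in RNA per cell cannot be told apart, and FPKM is relative, so a gain of some transcripts lowers the values of others.

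The members started at modest levels and spread over a wide range. Their mean control levels ran from 5.34 to 409.8 FPKM with a median of 25.5 FPKM, and their mean drought levels from 25.5 to 3526 FPKM with a median of 210.7 FPKM. The median over members was 25.2, 24.6 and 21.3 FPKM in controls 1, 2 and 3 and 238.3, 206.0 and 174.8 FPKM in drought 1, 2 and 3. The ratio of the drought mean to the control mean, called the fold here, ran from 3.36 to 95.8 with a median of 7.29. It was at least 5 in 97 members, at least 10 in 38, at least 20 in 14 and at least 50 in 4. The stricter ratio of the lowest drought value to the highest control value had a median of 4.58 and reached 10 or more in 15 members.

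Every one of the 119 members was also called higher in drought by limma (moderated test, adjusted by Benjamini-Hochberg over all 9317 transcripts tested, threshold 0.05), against 10.3% of all tested transcripts. Every drought library lay above every control library in all 119 members by construction, and in 23.1% of the tested transcripts. The rule used this same contrast, so nothing is read from either count.

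The member with the highest drought level was Lo_f53p60_1303_transcript20699_g1, of 1303 nt. It had 118.5, 116.2 and 106.3 FPKM in controls 1 to 3 and 4234, 3802 and 2541 FPKM in drought 1 to 3. The controls were tightly grouped and drought 3 was the lowest of the drought libraries, still 21.4 times the highest control. From 114 ± 6.47 to 3526 ± 880.1 FPKM (SD, n = 3 each), its fold was 31.0, a log2 change of 4.91 ± 0.25 (SE from limma).

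The member with the largest separation was Lo_f2p60_775_transcript28235_g7, of 775 nt, which began just above the basal limit. It had 6.17, 6.89 and 7.16 FPKM in the controls and 592.6, 692.4 and 345.8 FPKM in the drought libraries. Its lowest drought value was 48.3 times its highest control, and its log2 change was 6.08 ± 0.29 (SE from limma). This log2 change depended on the pseudocount and stood at 4.99 with a pseudocount of 10.

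The largest fold of means belonged to a transcript of 1141 nt, with 14.7, 12.4 and 21.3 FPKM in the controls and 1918, 1732 and 985.7 FPKM in the drought libraries. It went from position 6862 among all transcripts by mean control level to position 92 by mean drought level, with a fold of 95.8. A transcript of 911 nt rose 50.7-fold, from 13.4, 8.89 and 12.9 FPKM to 700.3, 663.8 and 419.8 FPKM. In both of them drought 3 was again the lowest of the drought libraries, and in neither was it near the controls.

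Other members with wide margins differed in how even their drought libraries were. A transcript of 1052 nt stood at 24.4, 21.3 and 11.5 FPKM in controls 1 to 3 and at 1022, 794.3 and 595.3 FPKM in drought 1 to 3. A transcript of 709 nt stood at 18.3, 11.9 and 14.9 FPKM in controls 1 to 3 and at 369.2, 376.9 and 305.8 FPKM in drought. The 709 nt transcript was nearly level across drought libraries, and the 1052 nt transcript was highest in drought 1 and lowest in drought 3. A transcript of 1667 nt was the least even of them, with 10.3, 11.9 and 12.0 FPKM in controls 1 to 3 and 510.6, 524.1 and 155.3 FPKM in drought. Its level in drought 3 was 0.3002 of the mean of drought 1 and 2, and still 13.0 times its highest control.

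**Figure D1:**
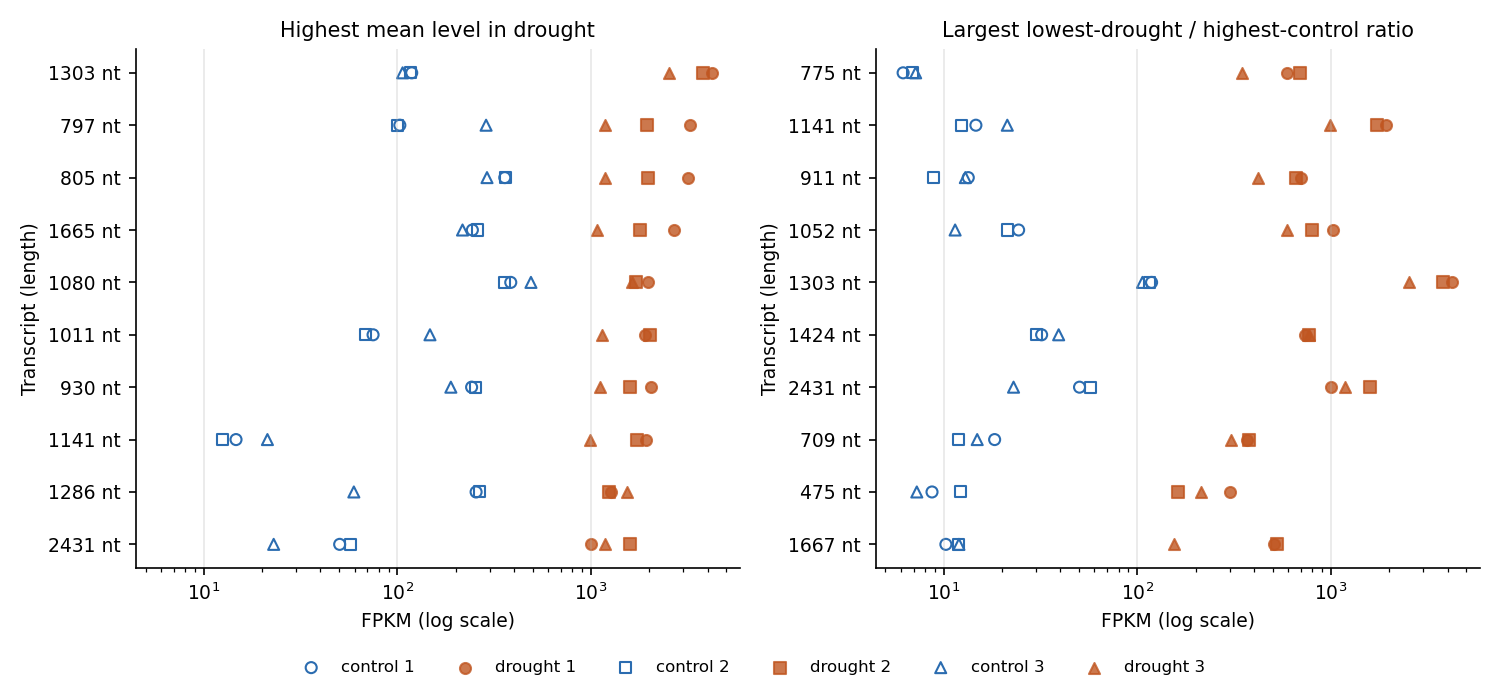
FPKM in each of the 6 libraries (log axis) for the 10 members with the highest mean drought level (left) and the 10 with the largest ratio of lowest drought to highest control value (right), labelled by transcript length. Open blue symbols are controls, filled orange symbols are drought libraries, and the symbol shape gives the library number. The 1303 nt transcript reached the highest drought values, and the triangle of drought 3 is the leftmost filled symbol in many of the transcripts.

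The other members at the top of the drought levels included both modest and steep risers. A transcript of 1080 nt had the highest basal level of all members, with 384.8, 355.5 and 489.2 FPKM by control library, and reached 1970, 1703 and 1633 FPKM in drought, a fold of 4.32. A transcript of 1665 nt started at 243.8, 260.5 and 216.8 FPKM by control library and had 2687, 1797 and 1071 FPKM in drought, a fold of 7.70. The 1080 nt transcript was close to level across the drought libraries, whereas the 1665 nt transcript was spread by more than its lowest value.

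Transcripts of 797 and 805 nt held nearly equal drought levels from different starting points. The 797 nt transcript started at 102.9, 99.7 and 287.0 FPKM by control library and had 3233, 1942 and 1186 FPKM in drought. The 805 nt transcript started at 358.3, 361.9 and 290.1 FPKM and had 3169, 1966 and 1176 FPKM in drought. The ratio of the 797 nt to the 805 nt transcript was 0.988 to 1.02 in the drought libraries and 0.989 in control 3, but 0.287 and 0.275 in controls 1 and 2. Whether similar transcripts share fragments in these tables was not tested, since no sequence was used here.

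The basal level went with the drought level and only weakly with the fold. Across the 119 members, the mean control level correlated with the mean drought level at Spearman's rho = 0.789 (Pearson's r = 0.801 on log2 values). It correlated with the fold at rho = -0.148 (r = -0.188). With the basal level taken from control 1 and the fold computed against controls 2 and 3, rho was -0.139. These are descriptions across transcripts that share the same 6 libraries, and the rule itself cuts off folds under 3. The rule thereby sets a floor under the drought level that rises with the control level. It thus favours a positive correlation between these levels, and no value over other transcripts is set beside it.

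By class of mean control level, low starters were more often members and rarely reached the top levels. Members made up 5.74% of the 331 transcripts of sufficient basal level that averaged 5 to 10 FPKM in controls (19 members), 2.13% of 1834 at 10 to 25 FPKM (39 members) and 1.74% of 2009 at 25 to 50 FPKM (35 members). They made up 0.592% of 1689 at 50 to 100 FPKM (10 members) and 0.795% of 2013 at 100 FPKM and over (16 members). In the lowest class, any control value under 5 FPKM excluded a transcript, which limits how far its controls could differ. The part of this limit in the percentages was not tested. The median fold was 9.11, 8.59, 6.74, 9.21 and 5.88 in these classes from low to high, so it did not fall steadily with basal level. The highest fold was 80.6 and 95.8 in the lowest pair of classes and 31.0 in the highest class.

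The members with the steepest folds did not all start low. The 14 members with a fold of at least 20 had mean control levels of 6.74 to 113.7 FPKM, with a median of 19.2 FPKM. A transcript of 2431 nt, for example, stood at 50.3, 57.0 and 22.9 FPKM in controls 1 to 3 and at 999.2, 1586 and 1184 FPKM in drought, a fold of 28.9. Its controls differed among themselves, with control 3 the lowest, and all of its drought values were at least 17.5 times the highest of them. At the other end, the member with the lowest drought level, of 963 nt, stood at 7.18, 6.45 and 6.86 FPKM in controls 1 to 3 and at 24.7, 26.9 and 25.0 FPKM in drought.

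**Figure D2:**
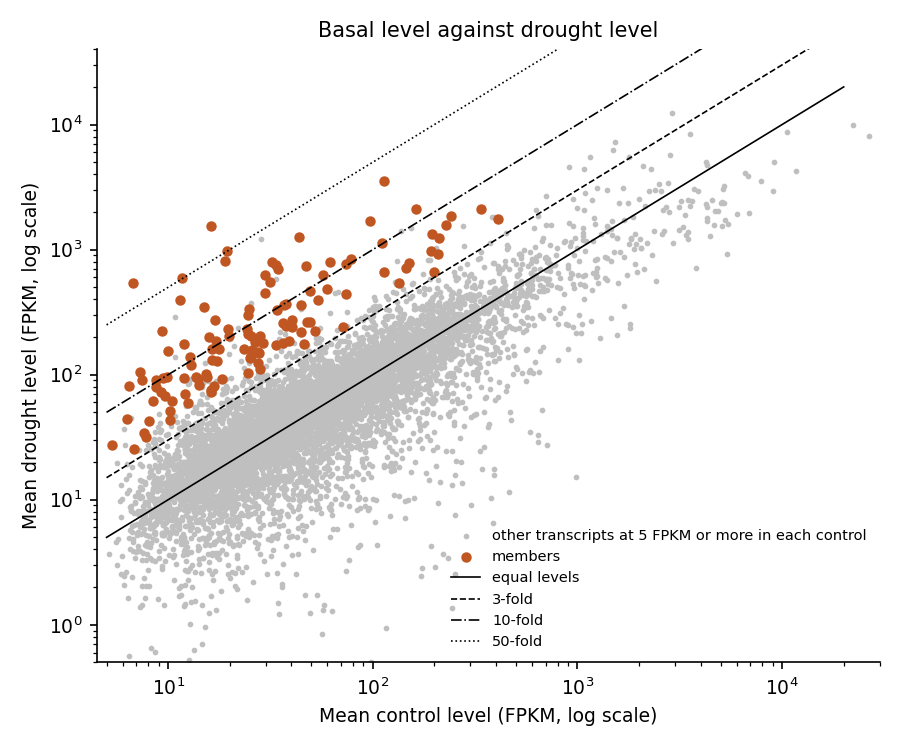
Mean drought level against mean control level (FPKM, both axes log) for the 119 members (orange) and the other 7757 transcripts with 5 FPKM or more in each control (grey; transcripts with a mean drought level of 0.5 FPKM or less are not drawn). Lines mark equal levels and 3-, 10- and 50-fold rises. Members that started higher tended to end higher, which the rule favours, and their folds scatter from 3.36 to 95.8.

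Few members reached the very top of the drought transcriptome. None was among the 10 transcripts with the highest mean drought level, where the 10th stood at 5473 FPKM, and the 1303 nt transcript alone was among the first 50, at position 21. There were 8 members among the first 100, 40 among the first 500 and 61 among the first 1000. By mean control level the same 119 transcripts had 0 members in the first 100, 1 in the first 500 and 7 in the first 1000. In the separate libraries, 8, 10 and 3 members were among the first 100 in drought 1, 2 and 3, and 0 in each control.

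The members that reached the first 100 came mostly from high basal levels. Of these 8, 6 had averaged 100 FPKM or more in controls, the transcript of 1011 nt at position 80 had averaged 96.7 FPKM, and the 1141 nt transcript had averaged 16.1 FPKM. Of the 100 transcripts with the highest drought means, 64 were also among the first 100 by control mean, and the 8 members were part of the other 36. Just 10 of the 100 had stood beyond position 500 in controls, and 7 of those 10 were members. Of the remaining 3, 1 was below the basal limit in controls and 2 missed the ratio of lowest drought to highest control. Position 404 in controls stood at 409.8 FPKM and position 100 in drought at 1419 FPKM. A climb from beyond position 500 to the first 100 thus took a rise in means of over 3-fold, which the rule favours.

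**Figure D3:**
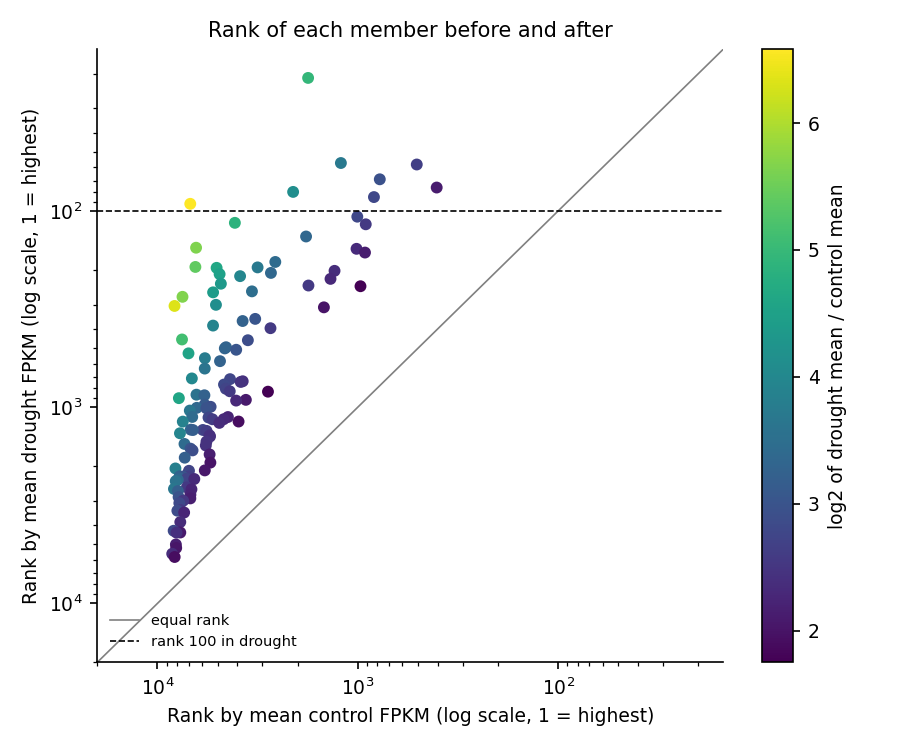
Position of each member by mean drought FPKM against its position by mean control FPKM (log axes, 1 is the highest level, colour is the log2 of the fold). All members lie above the line of equal position, and 8 lie above the dashed line at position 100 in drought.

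The members' share of all FPKM was small in controls and several times larger in drought. They held 0.577%, 0.566% and 0.425% of all FPKM in controls 1, 2 and 3 and 5.20%, 5.12% and 3.91% in drought 1, 2 and 3. The rule put every drought value of a member at 3 times its highest control or more, so a gap between the groups was set in advance. Within the drought group, drought 3 was below the other libraries. The means were 0.522% ± 0.085 and 4.74% ± 0.72 (SD, n = 3 each), a difference of 4.22 percentage points and a ratio of 9.08.

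The share was concentrated in a minority of members. The 10 members with the highest drought levels held 36.4% of the members' drought FPKM and the 18 highest held just over 50%. The 1303 nt transcript alone held 6.83% of it, against 1.94% of the members' control FPKM. By basal class, the 16 members that averaged 100 FPKM or more in controls held 42.4% of the members' drought FPKM and 53.8% of their control FPKM. The 39 members at 10 to 25 FPKM held 18.0% in drought and 11.0% in controls.

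Among all gains in the tables, the members supplied a minority of the sum, though more than their number. With the FPKM sums of the libraries made equal, 5357 transcripts had a higher mean in drought than in controls. The 119 members supplied 14.7% of the summed gain of these 5357 transcripts. They were 31 of the 100 transcripts with the largest gains and 1 of the 10 with the largest. The rule picks transcripts that rise by a large factor, so these values only describe the members.

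**Figure D4:**
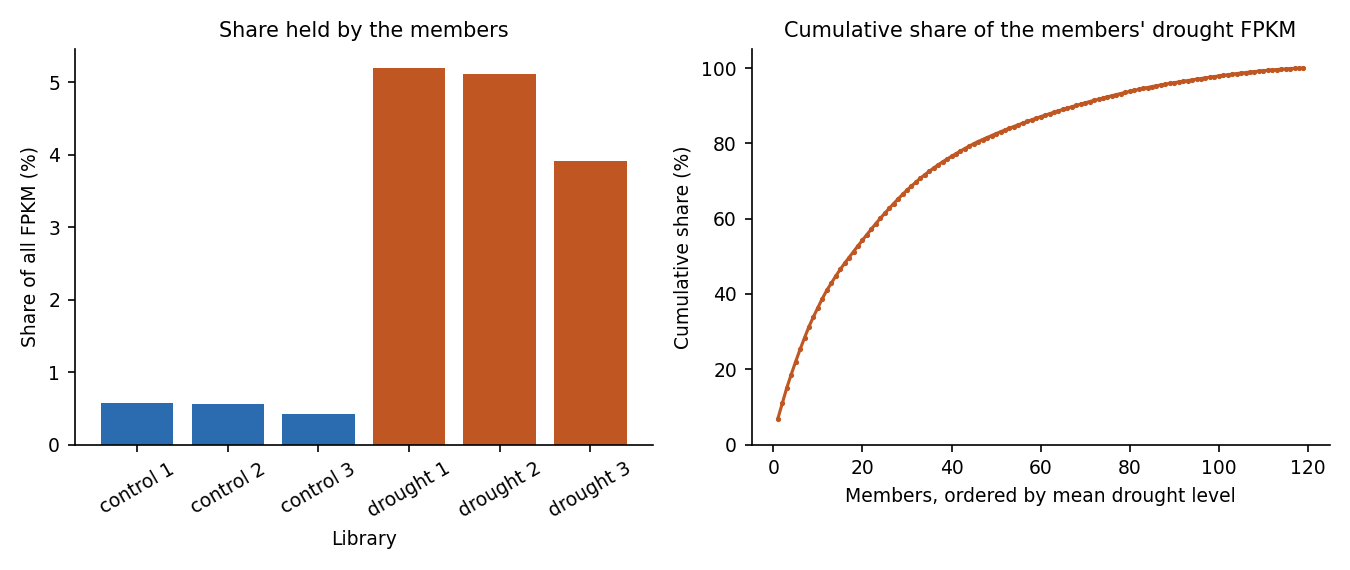
Left, the share of all FPKM held by the 119 members in each library (bars from 0, controls blue, drought orange), from 0.425% to 0.577% in controls and from 3.91% to 5.20% in drought. Right, the cumulative share of the members' mean drought FPKM with members ordered from the highest drought level, which passes 50% at the 18th member.

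The rise was smallest in drought 3. Relative to each member's control mean, the median level was 7.91 in drought 1, 7.52 in drought 2 and 5.93 in drought 3. Drought 3 held the lowest drought value in 85 of the 119 members (71.4%), against 39.7% of the other 7757 transcripts of sufficient basal level. The median ratio of drought 3 to the mean of drought 1 and 2 was 0.749 in the members and 0.979 in the others. With equal FPKM sums drought 3 was lowest in 79 members and the median ratio was 0.796. From 800 to under 1200 nt (58 members) the unscaled median was 0.723 in the members and 0.871 over all transcripts of sufficient basal level. Across all tested transcripts, too, drought 3 was the drought library that correlated most closely with the controls. The rule set a floor under the lowest drought value of the members and none under that of the others, and no difference between members and others was tested.

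The members did not move as a block in drought 3. The ratio was below 0.5 in 13 members and above 1 in 21. A transcript of 1168 nt had 1360 and 1308 FPKM in drought 1 and 2 and 269.4 FPKM in drought 3, from 11.5, 13.8 and 33.0 FPKM in the controls. A transcript of 2074 nt went the other way, with 40.3, 81.8 and 148.1 FPKM in drought 1, 2 and 3, from 7.19, 5.99 and 9.15 FPKM in the controls. The order of the members was nevertheless close between drought libraries, with rho = 0.963 between drought 1 and 2, 0.932 between 1 and 3, and 0.939 between 2 and 3.

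Control 3 stood apart from controls 1 and 2 in some members, in both directions. Its ratio to the mean of controls 1 and 2 had a median of 0.854 in the members and 0.727 in the other transcripts of sufficient basal level. It was below 0.5 in 19 members and above 2 in 9. A transcript of 842 nt had 105.4 and 105.5 FPKM in controls 1 and 2 and 10.9 FPKM in control 3, against 431.3, 338.0 and 554.8 FPKM in drought. Its highest control was control 2, so control 3 had no part in its ratio of lowest drought to highest control. A transcript of 1571 nt had 13.6 and 11.7 FPKM in controls 1 and 2 and 78.1 FPKM in control 3, against 744.5, 896.6 and 447.7 FPKM in drought, and there control 3 was the highest control.

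The rule was also applied to 5 libraries at a time and read out in the library it had not used. Without drought 3 it chose 229 transcripts, and in drought 3 these stood at a median of 3.11 times their highest control. In that library 119 of the 229 (52.0%) were at least 3 times their highest control, and 13 were below the highest control. Without drought 1 it chose 130 and without drought 2 it chose 128, with medians of 6.27 and 5.76 in the library left out and none below the highest control. Without control 3 it chose 175, of which 119 (68.0%) met the whole rule in control 3. Another 19 fell under 5 FPKM there, and 37 missed the ratio of lowest drought to highest control alone. In 12 of the 175, the lowest drought value was below control 3. Without control 1 and control 2 it chose 134 and 128. The size of the set thus rested on drought 3 more than on any other library, while every one of the 119 was in each of these choices by construction.

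**Figure D5:**
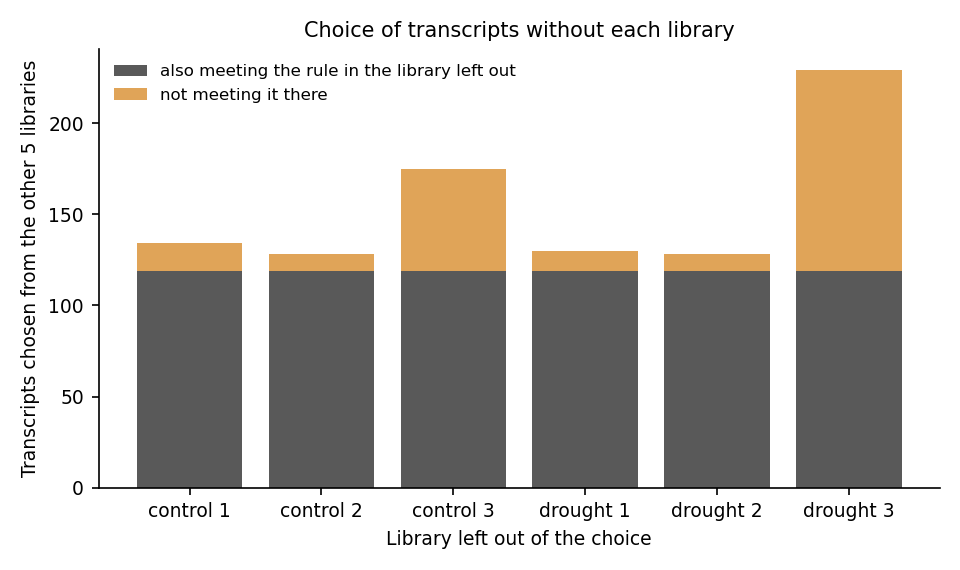
Number of transcripts chosen by the rule from 5 libraries, by the library left out (bars from 0). The dark part, 119 in every bar, also met the rule in the library left out, and the light part, largest for drought 3 with 110, did not.

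The length class from 800 to under 1200 nt held 58 of the 119 members. The length, read from the identifier, ran from 429 to 3150 nt in the members with a median of 1060 nt, and the median of the 7876 transcripts of sufficient basal level was 1261.5 nt. Members made up 1.25% of these transcripts under 800 nt (17 members), 2.53% from 800 to under 1200 nt (58 members), 1.19% from 1200 to under 1700 nt (24 members) and 0.904% at 1700 nt and over (20 members). The median fold was 11.1, 7.05, 7.56 and 5.52 in these classes. Levels moved with length between the libraries: over the 7876 transcripts, the median ratio of control 3 to controls 1 and 2 was 0.945 under 800 nt and 0.552 at 1700 nt and over, and that of drought 3 to drought 1 and 2 was 0.805 and 1.10. In the members the drought 3 ratio was 0.739, 0.723, 0.749 and 0.900 from short to long. Over the 7876 transcripts it was 0.805, 0.871, 0.994 and 1.10. The part of these trends in the lengths of the members was not tested.

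Transcripts lay on both sides of the thresholds without a gap. There were 32 members with a ratio of lowest drought to highest control from 3 to 3.5, and 59 transcripts of sufficient basal level with a ratio from 2.5 to 3. The 5 members nearest the fold limit had ratios of 3.02 to 3.08 and the 5 transcripts just outside it had 2.95 to 2.99. The highest expressed of those just outside, of 1175 nt, had 975.0 to 1276 FPKM in controls and at least 3790 FPKM in drought. At the basal limit, the 5 members nearest to it had a lowest control value of 5.03 to 5.31 FPKM. Among transcripts that met the fold limit, the 5 just under the basal limit had 4.15 to 4.74 FPKM.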

How the data were processed

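Each library has its own table of 12228 transcripts, in which the authors deposited FPKM values (unit per the file headers) with 2 decimals. The submitters' processing notes list HTSeq 0.6.0, HISAT2 2.1.0 and Bowtie2 2.2.3 without saying what each did. The reference, the counting rule and any use of strand: not given in the sources used here. Groups and replicate numbers come from the sample titles.

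The tables were joined by identifier and the rule was applied to the FPKM as deposited. The members, the rule and the descriptions were chosen with earlier results of these data known. Over all transcripts with at least 1 FPKM in at least 3 libraries (9317), drought was compared with control by limma (moderated test, variance trend on the mean level) on log2(FPKM + 1), Benjamini-Hochberg adjusted, threshold 0.05 (limma 3.58.1, R 4.3.3), and the fit was tested on simulated data. Such log2 changes understate the change of low transcripts. Shares are sums of FPKM over the library's sum.

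The length is the number before "transcript" in the identifier. Low FPKM values times that length, less 280 or 290 nt, fell on whole multiples of a step within 0.1 fragment for 65.3% to 71.4% of values worth under 6 fragments, which gave the depth estimates. The other low values were not whole, so reads were not recovered and no counting intervals are given. Only depths within a preset range were searched, so a depth outside that range could not have been found. Identifiers printed are those of the member with the highest drought mean and the member with the largest ratio of lowest drought to highest control. Other members described stand at the ends of the ranges given or were picked after their values were seen.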

Additional observations from a re-analysis of the deposited data

How the results depend on the processing

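The number of transcripts meeting the rule stayed within 1.5 times of 119 under 11 of 14 alternatives. It was 285 at a fold threshold of 2 and 49 at a fold threshold of 5, and leaving out each library gave 128 to 229, the highest without drought 3. Scaling to equal FPKM sums gave 130 (113 of them members), upper quartile factors 109 (102 members), and removal of a length trend from each library 121 (103 members). A basal threshold of 1 FPKM gave 169 and of 10 FPKM gave 85, and averaging controls 1 and 2, an alternative added after seeing the data, gave 133. With the same 119 kept and each library left out of the means, the drought minus control difference in their share of all FPKM was 3.99 to 4.64 percentage points. It was 8.52 for the 285 transcripts at a fold threshold of 2 and 2.22 for the 49 at 5. The share was not computed for the sets chosen anew without each library. The members among the 100 most abundant in drought numbered 7 to 8 with each drought library left out, and 10 when ranked by the lowest drought value. This ranking uses no control values, so leaving out a control is no check of it. Calls over all transcripts moved with the setting: limma called 1860 of 9317 in either direction, 742 (without drought 2) to 2623 (without control 3) with each library left out, 919 with controls 1 and 2 averaged, 2866 with the length trend removed and 1428 with the replicate number as a block. Of the 119 members it called 116 to 119 with each library left out, 118 with the block and 119 in the other alternatives. The members were picked on this contrast, so nothing is read from these counts. The labels do not describe the numbers as a pairing, and deviations of same-numbered libraries correlated at -0.15, 0.23 and -0.03, so they were not taken as pairs. Over all tested transcripts the median log2 change ran from -0.10 without control 3 to 0.13 without control 2. Depth limits the low end, where the least covered member rested on an estimated 19.99 fragments in a control.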

Other observations

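The same rule turned around, with 5 FPKM or more in each drought library and a lowest control value at least 3 times the highest drought value, was met by 96 of 7796 transcripts (1.23%). Their median fold of control over drought was 7.19, close in size to the 7.29 of the 119 risen transcripts, with no test of the difference. A fold of at least 20 was found in 7 of the 96 and in 14 of the 119. The 96 transcripts held 2.82% ± 0.37 of the FPKM sum in controls and 0.401% ± 0.077 of it in drought (SD, n = 3 each), and 3 of them were among the 100 most abundant transcripts in controls. Their median length was 1042.5 nt, beside 1060 nt for the risen transcripts. Both sets were chosen on these libraries, so these values describe them only.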
